A study of Mus musculus with 50 samples.

Results

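The comparison described here is between mice of rearing facility RF3 and mice of rearing facility RF5 that were killed in their rearing facility at 8 weeks of age (TP1). The libraries were taken by the RF and TP in their titles, 5 of RF3 and 5 of RF5, which is 10 of the 50 libraries of the series, and all 144465 merged peaks of the study were considered. All mice were males of the strain C57BL/6JRj (Janvier Labs) with no engineered allele. Every sample was a ventral hippocampus, dissected from a brain that had been frozen whole in a hexane bath. The pregnant dams came from 1 breeding stock and reached the facilities before birth, so that the RFs are the factor compared, and a littermate of each mouse was killed at TP2, at 14 weeks by the labels, after a move to 1 test laboratory. The dams and pups of both facilities received diets from the same supplier and a reversed light cycle. RF3 used larger open-top cages, bedding that was not autoclaved, tap water, a mouse house and a cardboard tunnel, handling by cup or tunnel and rooms of 1 sex. RF5 used filter-top cages, autoclaved bedding, treated water, a polycarbonate shelter, handling by the tail and mixed-sex rooms. Each RF is a single facility, so these features cannot be told apart.

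Chromatin accessibility was measured by the assay for transposase-accessible chromatin (ATAC-seq), in which the Tn5 transposase places adapters into DNA that is free of nucleosomes, so that active promoters and enhancers collect reads. Nuclei were sorted for NeuN, an RNA-binding protein of the nuclei of most mature neurons, and astrocytes, oligodendrocytes and microglia lack it. The ventral hippocampus is the part of the hippocampus tied to emotional behaviour and stress responses, and pyramidal neurons, dentate granule cells and GABAergic interneurons are its main neurons.

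Promoter sequences are given for 4 of the genes on which the results turn, from 250 bases before to 50 bases after the RefSeq start in GRCm38.p6. Aldh1l1 (chr6:90550543-90550842, plus strand) encodes a folate enzyme of astrocytes and Acsbg1 (chr9:54661836-54662135, minus strand) a fatty acid ligase of astrocytes. Hes5 (chr4:154960673-154960972, plus strand) encodes a repressor that Notch signalling switches on. The promoter of Exph5 (chr9:53301420-53301719, plus strand), which encodes an effector of vesicle transport, had the largest promoter difference towards RF5 among protein-coding genes with at least 100 counts per library and no overlap of the libraries. Each sequence overlaps the accessible peak of its gene. Capitals mark matches on either strand to the CCAAT box (CCAAT or ATTGG) and to the core letters bound by the Notch effector RBPJ (TGGGAA or TTCCCA).
Aldh1l1: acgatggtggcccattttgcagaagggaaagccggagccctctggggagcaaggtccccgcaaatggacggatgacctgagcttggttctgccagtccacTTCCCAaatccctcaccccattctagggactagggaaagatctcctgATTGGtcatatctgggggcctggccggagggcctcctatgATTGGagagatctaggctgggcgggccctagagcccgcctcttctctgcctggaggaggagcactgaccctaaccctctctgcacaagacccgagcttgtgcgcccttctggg
Acsbg1: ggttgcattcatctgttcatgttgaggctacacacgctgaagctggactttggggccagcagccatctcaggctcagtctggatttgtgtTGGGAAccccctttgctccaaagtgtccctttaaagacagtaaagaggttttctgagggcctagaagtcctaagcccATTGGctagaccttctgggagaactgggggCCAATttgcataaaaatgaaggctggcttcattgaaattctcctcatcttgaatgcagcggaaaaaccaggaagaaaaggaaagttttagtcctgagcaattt
Hes5: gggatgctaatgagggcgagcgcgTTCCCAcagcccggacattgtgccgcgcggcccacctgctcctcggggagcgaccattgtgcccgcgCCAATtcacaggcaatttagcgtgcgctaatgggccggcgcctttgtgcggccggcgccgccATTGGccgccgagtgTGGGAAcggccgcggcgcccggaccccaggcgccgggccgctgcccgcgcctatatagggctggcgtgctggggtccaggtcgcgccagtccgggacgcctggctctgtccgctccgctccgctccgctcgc
Exph5: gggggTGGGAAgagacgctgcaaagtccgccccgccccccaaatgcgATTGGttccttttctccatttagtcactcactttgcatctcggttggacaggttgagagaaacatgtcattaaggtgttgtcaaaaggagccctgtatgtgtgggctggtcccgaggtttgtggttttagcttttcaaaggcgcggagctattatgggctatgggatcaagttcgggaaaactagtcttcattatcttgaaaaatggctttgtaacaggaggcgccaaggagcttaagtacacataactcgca
A match is a run of letters only, and no binding was measured. The GC content of these stretches was 60% for Aldh1l1, 47% for Acsbg1, 72.7% for Hes5 and 48.7% for Exph5, and they held 9, 2, 41 and 11 CpG dinucleotides in that order. Hes5 had 2 matches to TGGGAA and the other 3 promoters had 1 each.

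Total counts in peaks ranged from 36808242 to 57801417 in the 5 RF3 libraries and from 34710141 to 54492271 in the 5 RF5 libraries. Their means did not differ beyond the spread between libraries (exact permutation test, two-sided, p = 0.937 before and after adjustment over 5 library measures). The smallest p that splits of 5 against 5 allow is 0.00794. The share of counts in promoter peaks averaged 34.6% in RF3 and 35.2% in RF5 (adjusted exact permutation p = 0.648). The labels give each library as 1 mouse. RF3 replicates 3, 4 and 5 differed from each other by no more than sampling noise, as did RF5 replicates 3 and 4. RF3 replicates 2 and 4 were within the noise too, but replicate 2 was not within it against replicates 3 and 5, and libraries were joined only where every pair among them was close. The counts then hold 3 joined samples of RF3 and 4 of RF5. Replicate 1 stood apart most in both RFs. Counts of differences with the close libraries summed, and without replicate 1 of both RFs, are given beside the main count.

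Peaks with an FDR under 0.01 that differed by 0.5 or more on the log2 scale, in either direction, were called differentially accessible regions (DARs). These limits follow the study's methods. Of 144458 peaks tested with edgeR's quasi-likelihood test, 5775 were DARs (4%), 2971 of them more accessible in RF3 (2.06%) and 2804 in RF5 (1.94%). Without the fold threshold, 13727 peaks passed the FDR (9.5%). The median absolute log2 fold change of the DARs was 0.68, and the values ran from -3.02 to 3.56. A 2-fold difference or more was seen at 385 DARs in favour of RF3 and 441 in favour of RF5. At 4841 DARs (83.8%) the CPM values of the RF3 and RF5 libraries, which are counts scaled to the total counts in peaks of a library, did not overlap, against 19032 of all peaks tested (13.2%). With the close libraries summed into 1 sample each and no replicate block, 3704 peaks were DARs, 1988 towards RF3 and 1716 towards RF5, and 3575 of them were among the 5775. Without the block alone there were 5496. Without replicate 1 of both RFs there were 4985. The smallest absolute log2 fold change inside the threshold was 0.50 and the largest outside it was 0.4998, with FDRs of 0.009982 inside and 0.01001 outside.

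The DARs lay away from promoters more often than the peaks did. Of 15590 promoter peaks, within 2 kb of a gene start, 161 were DARs towards RF3 (1.03%) and 92 towards RF5 (0.59%). In gene bodies 1032 and 1205 of 77701 peaks were DARs (1.33% and 1.55%), and outside genes 1778 and 1507 of 51167 (3.47% and 2.95%). The DARs were also narrower and held fewer counts, with a median width of 824 bp against 1.5e+03 bp for all peaks and a median of 98 against 166 counts per library. Among the 1347 peaks of at most 200 bp, 44 were DARs towards RF3 (3.27%) and 150 towards RF5 (11.1%). Among the 45004 peaks wider than 2000 bp the numbers were 242 (0.538%) and 138 (0.307%).

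**Figure D1:**
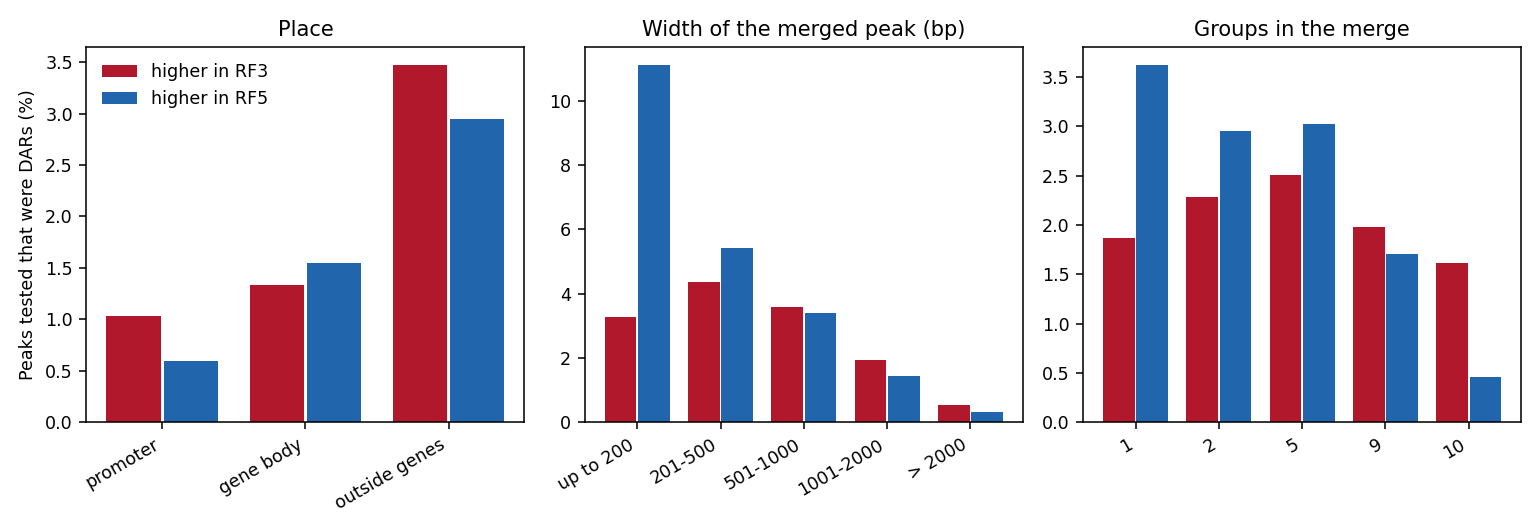
Percent of tested peaks that were DARs (y axis) by place in the genome, by peak width and by the number of RF and TP groups in the authors' merged peak list that held the peak, for 1, 2, 5, 9 and 10 groups (x axes), with bars for DARs higher in RF3 and higher in RF5. Promoter peaks have the lowest percent of the 3 places (1.03% and 0.59%), and the narrowest peaks reach 11.1% for DARs higher in RF5.

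The authors' list gives, for each merged peak, how many of the 10 groups of RF and TP contributed to it. Peaks that came from 1 group held 441 DARs towards RF3 and 855 towards RF5 of 23605 peaks (1.87% and 3.62%), and peaks from all 10 groups held 880 and 249 of 54751 (1.61% and 0.455%). The merge used the same libraries as the counts, so this is a description of the list and not a separate measurement. By the authors' peak calls in single libraries, 2095 of the 2971 DARs towards RF3 (70.5%) were called in more RF3 than RF5 libraries and 9 in more RF5 libraries. Of the 2804 DARs towards RF5, 2291 (81.7%) were called in more RF5 libraries and 19 in more RF3 libraries. Over all peaks tested, the shares called in more RF3 and in more RF5 libraries were 21.5% and 22.6%. The calls come from the same reads as the counts.

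Promoters of astrocyte genes were more accessible in RF3. All 20 genes of the astrocyte list had a promoter peak, and 6 of them (Aldh1l1, Gfap, Acsbg1, Aldoc, Mlc1 and Apoe) had a promoter DAR towards RF3 and 0 towards RF5, while over all 15163 genes with a tested promoter peak 160 had one towards RF3 (1.06%) and 94 towards RF5 (0.62%). At the FDR alone 12 of the 20 promoters rose in RF3 and 0 rose in RF5, where 1075 of all 15163 promoters passed (7.09%), 462 towards RF3 and 613 towards RF5. At an unadjusted p under 0.05 the counts were 17 towards RF3 and 1 towards RF5, and DESeq2 also called 6 genes towards RF3 and 0 towards RF5. Over all 15163 promoters, 3994 had an unadjusted p under 0.05 (26.3%), 1679 towards RF3 (11.1%) and 2315 towards RF5 (15.3%), and DESeq2 called 1.02% of the genes towards RF3 and 0.732% towards RF5. The median log2 fold change of RF3 over RF5 was 0.33 over the 20 promoters and -0.01 over all promoters. The list was chosen with results of these data known, and these counts are no independent evidence for it.

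The promoter peak of Aldh1l1 (chr6:90550221-90550966) had 3.34, 4.29, 4.61, 3.88 and 3.77 CPM in RF3 replicates 1 to 5 and 2.01, 1.84, 2.1, 1.87 and 1.92 CPM in RF5 replicates 1 to 5. Every RF3 library lay above every RF5 library, and the log2 fold change was 1.04 ± 0.13 (SE, n = 5 and 5, edgeR FDR 9.8e-09). Gfap encodes the intermediate filament of astrocytes. Its peak (chr11:102898149-102899052), which lies 949 bp outside the gene, had 5.71, 6.84, 6.29, 6.41 and 6.33 CPM in RF3 and 3.42, 3.06, 3.28, 3.62 and 2.75 CPM in RF5. The groups did not overlap, and accessibility was 1.97-fold higher in RF3 (log2 0.98 ± 0.10, FDR 1.5e-10). Acsbg1 (chr9:54661646-54662541) had 2.37, 2.53, 2.71, 2.53 and 3.59 CPM in RF3, the last library being the highest, and 1.45, 1.65, 1.64, 1.44 and 2 CPM in RF5. Its difference was smaller, with no overlap (log2 0.75 ± 0.15, FDR 0.00013).

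Aldoc encodes the aldolase of astrocyte glycolysis, and its promoter had 12.4 to 14.7 CPM in RF3 and 7.27 to 10.3 CPM in RF5 (log2 0.70 ± 0.09, FDR 6.5e-08). Mlc1, a membrane protein of astrocyte endfeet, had 2.96 to 3.94 CPM in RF3 and 2.1 to 2.67 CPM in RF5 (log2 0.61 ± 0.12, FDR 0.00019). Neither gene's groups overlapped. Apoe, the main lipid carrier that astrocytes release, had a DAR at a second promoter peak (chr7:19698312-19699958, log2 0.62 ± 0.08), with 8.16 to 10.4 CPM in RF3 and 6.04 to 6.65 CPM in RF5. Sox9, a transcription factor of astrocytes, and Slc1a3, a glutamate transporter, passed the FDR but not the fold threshold, at log2 0.42 ± 0.06 and 0.45 ± 0.08. The values of 3 further genes were below 0 and passed neither: Aqp4, the water channel of endfeet, at -0.21 ± 0.13 (FDR 0.27), the bicarbonate transporter Slc4a4 at -0.15 ± 0.07 (FDR 0.11) and the glutamate transporter Slc1a2 at -0.02 ± 0.06 (FDR 0.83).

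**Figure D2:**
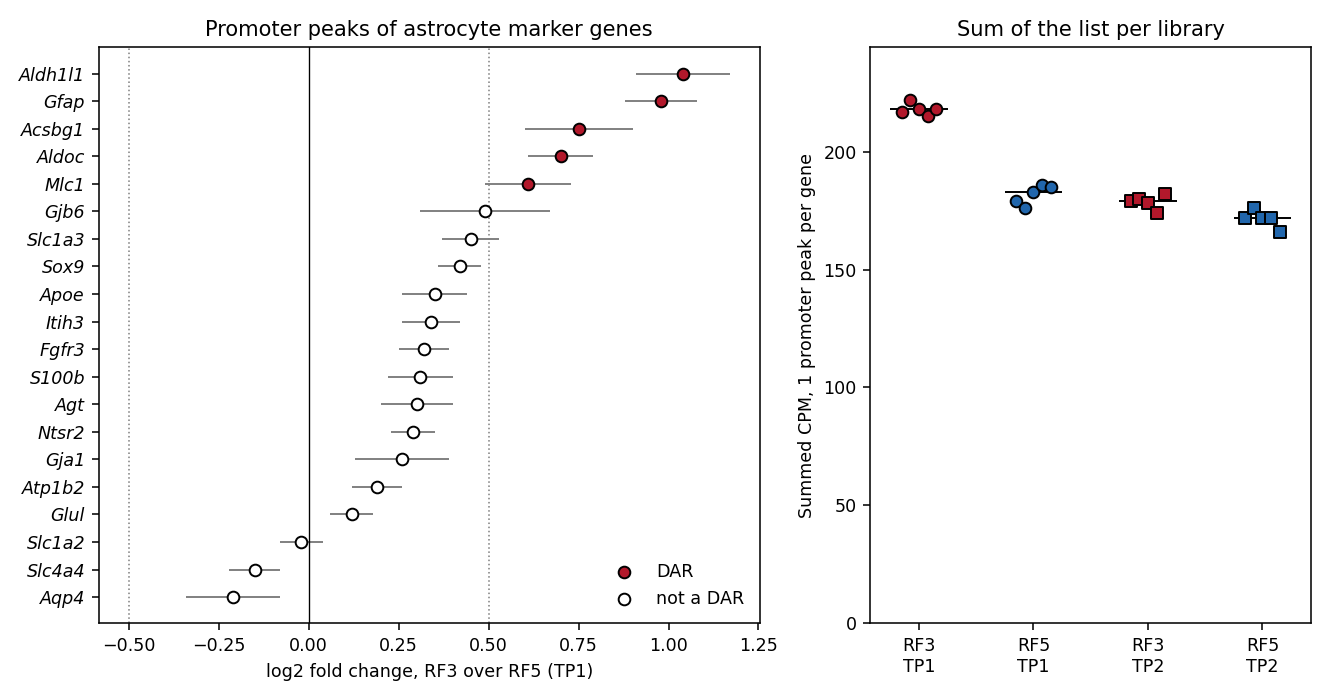
Log2 fold change of RF3 over RF5 at TP1 with its standard error for the promoter peak with most counts of each of the 20 astrocyte genes (left) and the summed CPM of these promoters in each library (right, 1 point a library with a line at the group median). Filled points on the left are DARs, and dotted lines mark the fold threshold. Of the 20 values 17 lie above 0, and the 5 RF3 libraries at TP1 (215 to 222 CPM) lie above the 5 RF5 libraries (176 to 186 CPM).

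Summed over the 20 promoters, the astrocyte list held 215 to 222 CPM in the RF3 libraries and 176 to 186 CPM in the RF5 libraries, with no overlap. The other RFs at TP1 held 198 to 205 CPM (RF1), 189 to 200 CPM (RF2) and 171 to 180 CPM (RF4), so that RF3 had the highest and RF4 the lowest sums. A low RF4 sum was not particular to this list. RF4 was also the lowest in the dentate (319 to 331 CPM) and interneuron lists (287 to 302 CPM). In the microglial list it was not, at 87.4 to 95.8 CPM against 71.4 to 80.8 CPM in RF1. None of the 20 promoters was at 0 in a library. Over the 120 peaks in these 20 genes, 12 were DARs towards RF3 and 0 towards RF5. In sorted bulk nuclei, more astrocyte nuclei in a sort and more open astrocyte promoters per nucleus cannot be told apart, and the part of sort purity in any difference below was not tested.

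The other glial lists did not move together in this way. Of the 20 oligodendrocyte genes, 9 had a promoter peak, their median log2 fold change was -0.02 and their sums overlapped, at 68.4 to 75.6 CPM in RF3 and 68.2 to 74.8 CPM in RF5. The exception in that list was Olig2, a transcription factor of the oligodendrocyte lineage, at 2.58, 3.03, 2.76, 3.97 and 3.27 CPM in RF3 and 1.43, 1.56, 1.61, 2.11 and 2.03 CPM in RF5. It was a DAR with no overlap (log2 0.85 ± 0.15, FDR 2e-05), while the myelin gene Mbp (-0.04 ± 0.06) passed no threshold. Of the 20 microglial genes, 12 had a promoter peak, with a median of 0.05 and sums of 89.1 to 98.9 CPM in RF3 and 87 to 96.3 CPM in RF5. Sall1, a transcription factor that keeps microglial identity, was the only DAR of that list (log2 0.78 ± 0.09, FDR 1.1e-09), at 9.43 to 11.2 CPM in RF3 and 5.33 to 6.77 CPM in RF5. None of the 9 oligodendrocyte and 12 microglial promoters was at 0 in a library.

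Together the astrocyte, oligodendrocyte and microglial promoters took 0.0386% of counts in RF3 and 0.0345% in RF5, and the libraries did not overlap (0.0374% to 0.0392% against 0.0335% to 0.0354%, exact permutation p = 0.00794, adjusted p = 0.0397 over 5 measures). Without the libraries of any 1 replicate number the adjusted p was 0.0714 to 0.143, with a difference of 0.00382 to 0.00426 percentage points against 0.00407. This test takes the 5 libraries of an RF as separate samples, and the marker lists were chosen with results of these data known. Its p is therefore no independent evidence. By list, the astrocyte sums did not overlap between the RFs, while the oligodendrocyte and microglial sums did. With the close libraries averaged, 3 samples against 4, the difference was 0.00398 percentage points with an exact permutation p of 0.0286, the smallest that these splits allow, and an adjusted p of 0.143. Among 12 endothelial and mural promoters there were 0 DARs in edgeR and in DESeq2, and the median was 0.01. An unadjusted p under 0.05 was found for 4, all 4 towards RF3, against 11.1% of all promoters towards RF3. The sums of these 12 promoters did not overlap, at 65.9 to 71.3 CPM in RF3 and 60.8 to 64.6 CPM in RF5. Among 10 promoters of choroid plexus and ependyma the median was 0.18, and the water channel Aqp1 was the only DAR, at 2.14 to 2.84 CPM in RF3 and 0.991 to 1.58 CPM in RF5 (log2 0.98 ± 0.17, FDR 1.8e-05). The sums of that list did not overlap, at 107 to 112 CPM in RF3 and 95.1 to 98 CPM in RF5. Ttr, the transport protein by which choroid plexus is usually known, was at 0.10 (FDR 0.49).

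Promoters of neuronal marker genes held 1 DAR. The 20 dentate granule cell promoters had 0 DARs and a median log2 fold change of -0.05, the 28 interneuron promoters had 0 and a median of -0.07, and the 24 pyramidal promoters had 1 and a median of 0.04. DESeq2 gave the same counts, and 4 dentate, 8 interneuron and 6 pyramidal promoters had an unadjusted p under 0.05. Over all promoters 26.3% had such a p, and 1.06% and 0.62% of all genes had a promoter DAR towards RF3 and RF5. These counts do not set the neuronal lists apart from other genes. The 1 pyramidal DAR was Nts, which encodes the peptide neurotensin. It had 1.11, 1.17, 1.65, 1.2 and 0.897 CPM in RF3 and 1.86, 2.46, 2.13, 2 and 1.86 CPM in RF5, with no overlap (log2 -0.76 ± 0.17, FDR 0.00097), and without RF5 replicate 2 its FDR was 0.011. Prox1, the transcription factor of dentate granule cells, was at -0.20 ± 0.06 (FDR 0.019) and Gad1, the enzyme that makes GABA, at -0.12 ± 0.06 (FDR 0.17). Among 27 promoters that mark neighbouring brain regions the median was -0.00 and the 1 DAR was Tcf7l2, a Wnt effector abundant in thalamic neurons and also present in glia. Its promoter peak (chr19:55740447-55741923) had 5.28, 4.64, 4.66, 4.27 and 4.75 CPM in RF3 and 2.69, 2.46, 2.19, 1.87 and 2.08 CPM in RF5. No library overlapped (log2 1.07 ± 0.12, FDR 7.9e-10).

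In the Notch pathway, a cleaved receptor turns on repressors of neuronal differentiation. Of its 24 genes with a promoter peak, 4 had a DAR towards RF3 and 0 towards RF5, against 1.06% and 0.62% of all genes. The median over the 24 was 0.07. DESeq2 gave 4 and 0 as well. At an unadjusted p under 0.05 there were 9 towards RF3 and 0 towards RF5. The shares of all promoters with such a p were 11.1% towards RF3 and 15.3% towards RF5. The receptor Notch1 had 21.8, 25.4, 22.9, 23.3 and 23.8 CPM in RF3 and 16.7, 15.9, 16.7, 15.8 and 16.4 CPM in RF5 (log2 0.54 ± 0.07, FDR 3.1e-08). The glycosyltransferase Lfng, which tunes the receptor's response to its ligands, had 16.9 to 20.4 CPM in RF3 and 11.5 to 13.6 CPM in RF5 (log2 0.64 ± 0.07). Both genes were higher in every RF3 library. The target repressors Hes5 (12.7 to 14.1 against 8.84 to 9.78 CPM, log2 0.53 ± 0.08) and Heyl (5.74 to 7.07 against 3.52 to 4.36 CPM, log2 0.63 ± 0.10) also rose without overlap. The ligands did not pass, with Dll1 at 0.14 (FDR 0.078) and Jag1 at 0.20 (FDR 0.094), nor did the receptor Notch2 at -0.07 (FDR 0.52). Notch1 and Hes5 lie near the fold threshold. With the counts of each 1 Mb region as an offset they were at 0.47 and 0.32, under the fold threshold and still past the FDR, and Hes5 was at 0.48 without RF3 replicate 4.

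Among 29 genes of lipid and cholesterol metabolism with a promoter peak, 4 had a promoter DAR towards RF3 and 0 towards RF5, 9 promoters passed the FDR and all of these were higher in RF3. The median was 0.12. DESeq2 also gave 4 genes with a DAR towards RF3 and 0 towards RF5, and 13 against 1 promoters had an unadjusted p under 0.05. Over all genes, 1.06% had a promoter DAR towards RF3 and 0.62% towards RF5, and 7.09% of promoters passed the FDR. The shares of all promoters with an unadjusted p under 0.05 were 11.1% towards RF3 and 15.3% towards RF5. Apoc1, an apolipoprotein gene next to Apoe, had the largest promoter difference towards RF3 by the rule used for naming genes. Its peak (chr7:19693180-19694099) had 4.74, 5.01, 5.08, 5.03 and 6.3 CPM in RF3 and 1.74, 1.91, 2.39, 1.57 and 2.75 CPM in RF5. The groups were far apart, at 2.58-fold (log2 1.37 ± 0.12, FDR 4.7e-13), and the peak was called in 5 RF3 libraries and 1 RF5 library. Ppara, the nuclear receptor that turns on fatty acid oxidation, had 10.8, 12, 13.2, 13 and 14.3 CPM in RF3 and 7.12, 7.08, 8.56, 8.19 and 7.39 CPM in RF5 (log2 0.74 ± 0.08, FDR 1.1e-10). Cpt1a, the enzyme that lets fatty acids into mitochondria, had a DAR at a second promoter peak, at 3.26 to 4.34 CPM in RF3 and 1.69 to 2.89 CPM in RF5 (log2 0.72 ± 0.14). Srebf1, the regulator of fatty acid synthesis, passed the FDR at log2 0.43, whereas the sterol enzyme Sqle (0.03, FDR 0.81) did not pass. Apoe belongs to this list and to the astrocyte list.

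DARs towards RF3 were found at the promoters of single genes in other lists, where 1.06% of all genes had a promoter DAR towards RF3. The values of Kcnj10 and Bcan come from a second promoter peak with fewer counts than the main one. The potassium channel gene Kcnj10, which encodes the channel that buffers potassium in astrocytes, had 7.96 to 9.1 CPM in RF3 and 3.27 to 5.1 CPM in RF5 (log2 1.04 ± 0.10), the 1 DAR among 32 genes of potassium channels. Pdk4, a kinase that shuts off pyruvate dehydrogenase and responds to glucocorticoids, had 6.19 to 7.57 CPM in RF3 and 3.4 to 3.98 CPM in RF5 (log2 0.87 ± 0.10), the 1 DAR among 25 genes of the stress axis. In both, every RF3 library was above every RF5 library. Nfe2l2, the regulator of the oxidative stress response, was at 0.65 ± 0.08 (7.89 to 8.86 against 4.88 to 6.14 CPM). Smad6, an inhibitor of BMP signalling, was at 0.58 ± 0.07 (10.6 to 12.1 against 6.89 to 8.12 CPM). Bcan, a proteoglycan of the matrix around neurons, was at 0.71 ± 0.11 (4.77 to 6.06 against 2.42 to 3.93 CPM). These 3 also showed no overlap.

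Promoter DARs towards RF5 were fewer in the lists. Adcyap1, which encodes the peptide PACAP, had 7.23, 7.25, 5.89, 6.36 and 6.23 CPM in RF3 and 10.2, 9.41, 8.96, 10.4 and 10.5 CPM in RF5 (log2 -0.57 ± 0.08, FDR 6.4e-07). With Nts it made 2 genes with a promoter DAR towards RF5 among the 35 of neuropeptides and their receptors. The share of all genes with such a DAR was 0.62%. Wnt2, a secreted Wnt ligand, had 7.96 to 8.78 CPM in RF3 and 11.2 to 13.4 CPM in RF5 (log2 -0.51 ± 0.08, FDR 4.4e-06). The RF5 libraries were higher without overlap in both genes. Adcyap1 fell under the fold threshold with a 1 Mb region offset (-0.44). Wnt2 fell under it without RF3 replicates 1, 3 or 5 or RF5 replicate 2, at -0.47 to -0.49. In the Wnt list of 32 genes the only other DAR was Lef1, towards RF3, at a narrow peak of 21.7 counts per library.

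Several lists that bear on neuronal function held 0 promoter DARs. With 1.06% and 0.62% of all genes called, lists of this size need not hold any, and the zeros do not set them apart from other genes. These were the circadian clock (25 genes with a promoter peak), immediate early genes (29), glutamate receptors (26), GABA receptors (15), the serotonin system (20), the dopamine system (18), synaptic adhesion and scaffold (32), the presynaptic release machinery (29), modifiers of DNA methylation and histones (38) and chromatin remodellers (26). DESeq2 called 0 in each of these lists too, and from 1 (GABA receptors) to 11 (glutamate receptors) of their promoters had an unadjusted p under 0.05. Such a p was found for 26.3% of all promoters. The medians of these lists lay between -0.11 (glutamate receptors) and 0.05 (clock and immediate early genes). At the FDR alone, which 7.09% of all promoters passed, 4 clock promoters rose in RF3 and 0 rose in RF5. These were Nr1d1 (0.23), Tef (0.22), Bhlhe40 (0.22) and Ciart (0.28), while Per1, Cry1 and Clock were at 0.14 (FDR 0.17), 0.11 (FDR 0.21) and 0.02 (FDR 0.88). Fos, the gene most used as a sign of recent neuronal activity, had 23 to 27.6 CPM in RF3 and 23.5 to 26.9 CPM in RF5 (log2 0.00 ± 0.06). Modifiers of DNA methylation and histones and chromatin remodellers had 0 promoters past the FDR in edgeR, with 6 and 3 at an unadjusted p under 0.05. Imprinted genes had 0 DARs among 25 in edgeR and DESeq2. At the FDR alone, 4 genes passed towards RF5 and 1 towards RF3. Among the 4 were the potassium channel Kcnk9 at -0.38 and Peg10 and Sgce, which share 1 promoter, at -0.28.

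The remaining promoters named for their difference towards RF3, taking for each gene the promoter peak with most counts, belonged to genes outside the lists. The second promoter peak of Kcnj10, given above, differed more than these. Epas1, which encodes the hypoxia-inducible factor HIF-2 alpha, had 6.99, 8.46, 8.11, 7.61 and 7.83 CPM in RF3 and 3.69, 4.46, 4.32, 3.94 and 3.64 CPM in RF5 (log2 0.97 ± 0.09, FDR 8.8e-13). Nat8f4, of a family of acetyltransferases, had 9.1 to 10.6 CPM in RF3 and 4.87 to 5.62 CPM in RF5 (log2 0.96 ± 0.08, FDR 5.2e-13). The RF3 libraries were almost 2-fold higher in both, without overlap. Cmtm5, a membrane protein of myelinating cells, and the cytokine gene Il25 share 1 promoter peak (chr14:54935688-54937435), at 6.63 to 7.5 CPM in RF3 and 3.16 to 3.83 CPM in RF5 (log2 1.00 ± 0.10). Ccdc190 (log2 0.98 ± 0.13) and the kelch gene Klhdc7a (log2 0.90 ± 0.11) completed the 12 and likewise did not overlap.

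Towards RF5, Exph5 had 2.63, 2.88, 2.61, 2.83 and 3.06 CPM in RF3 and 5.51, 6.22, 5.56, 4.97 and 6.25 CPM in RF5 (chr9:53301205-53303078). All 5 RF5 libraries were at about 2 times the RF3 level (log2 -1.01 ± 0.10, FDR 1.5e-10), and the peak was called in 1 RF3 library and 5 RF5 libraries. Klhl30, a kelch gene, had 1.27 to 2.4 CPM in RF3 and 3.28 to 3.81 CPM in RF5 (log2 -0.99 ± 0.16). Madcam1, the adhesion molecule that guides lymphocytes into mucosa, had 2.13 to 2.8 CPM in RF3 and 3.33 to 4.98 CPM in RF5 (log2 -0.88 ± 0.12). S100a11, a calcium-binding protein, had 1.95 to 2.61 CPM in RF3 and 3.82 to 4.48 CPM in RF5 (log2 -0.88 ± 0.12). None of these overlapped. The other 8 promoters, of 4931408C20Rik, Gm41099, Akr1c18 (a steroid-reducing enzyme), Zfp976 (a zinc finger gene), Rasl2-9, Lrrc66, Sbspon and Zg16, had log2 fold changes of -0.60 to -0.73 and also did not overlap. Of the 12, Zfp976 and 4931408C20Rik lost their call with a 1 Mb region offset, at -0.21 and -0.46, and Zg16 lost it without RF5 replicate 5 (-0.54, FDR 0.011) and with close libraries summed and no replicate block (-0.59, FDR 0.02).

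**Figure D3:**
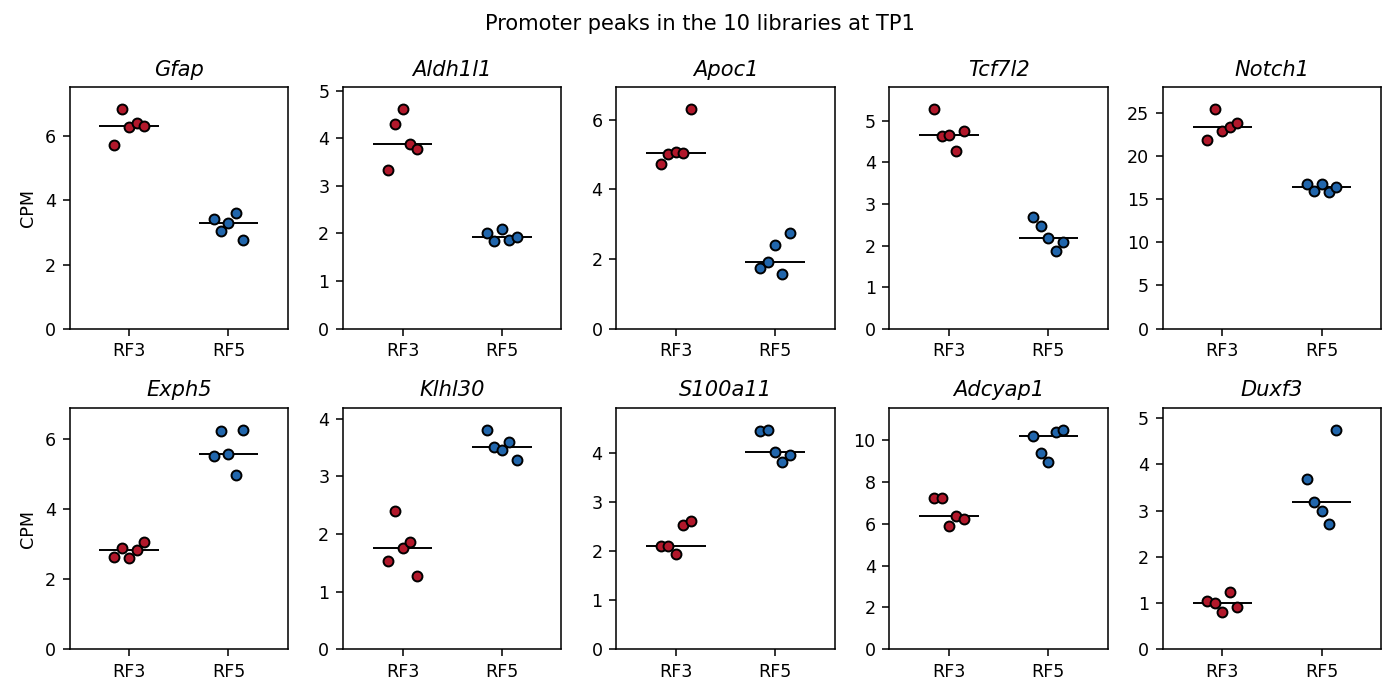
CPM (y axes, from 0) of 10 promoter peaks in each of the 5 RF3 and 5 RF5 libraries at TP1, 1 point a library with a line at the group median. In none of the panels do the RF3 and RF5 points overlap, with Aldh1l1 at 3.34 to 4.61 CPM against 1.84 to 2.1 CPM and Exph5 at 2.61 to 3.06 CPM against 4.97 to 6.25 CPM.

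The letters of the promoters were counted in both sets and over all promoters. A RefSeq promoter stretch was at hand for 81 genes whose main promoter peak was a DAR towards RF3, while 21 such genes had no entry, for 44 of 68 towards RF5 and for 12086 of all 15163. CCAAT, on either strand, was in 34.6% of the RF3 set, 43.2% of the RF5 set and 38.6% of all. TGGGAA was in 28.4%, 29.5% and 23.3%. The median GC content was 60% in the RF3 set, 51.8% in the RF5 set and 60.7% over all, and the median number of CpG dinucleotides was 9, 8 and 20. The AP-1 letters TGANTCA were in 7.41%, 4.55% and 4.87% of the RF3 set, the RF5 set and all. For the SOX letters ACAAT the shares were 24.7%, 25% and 20.5%, for TATAAA 7.41%, 4.55% and 7.5%, and for the STAT letters TTCCNGGAA 1.23%, 2.27% and 1.22%. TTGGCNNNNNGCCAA (NFI) was in 0 sequences of both sets and 3 of all. Only 65 of the 81 and 28 of the 44 stretches overlapped their peak. Motifs may overlap each other, and these shares are given without a test.

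Away from promoters, the largest differences towards RF3 by the naming rule lay inside Lpp, which encodes a LIM domain protein of cell adhesion sites. A stretch of 41 kb (chr16:24534841-24575848) held 5 peaks, and all 5 were DARs, with log2 fold changes of 1.70 to 2.61. The summed CPM of the 5 peaks was 23.5, 21.1, 20.5, 19.8 and 20.7 in RF3 replicates 1 to 5 and 6.33, 4.66, 4.06, 4.52 and 4.45 in RF5 replicates 1 to 5. The lowest RF3 library was above the highest RF5 library. The peak chr16:24568775-24570924 alone had 4.51 to 6.4 CPM in RF3 and 0.675 to 1.43 CPM in RF5 (5.51-fold, log2 2.46 ± 0.12, FDR 2.8e-22), and it was called in 5 RF3 libraries and 0 RF5 libraries. The other RFs lay in between or with RF3, at 12 to 13.4 CPM in RF1, 22 to 24.1 in RF2 and 13 to 15.9 in RF4. The 33 other peaks in a window of 500 kb around the stretch (chr16:24326060-24780986) were not shifted as a block. Their median was 0.04, their range was -0.33 to 1.26 and 3 of them were DARs.

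**Figure D4:**
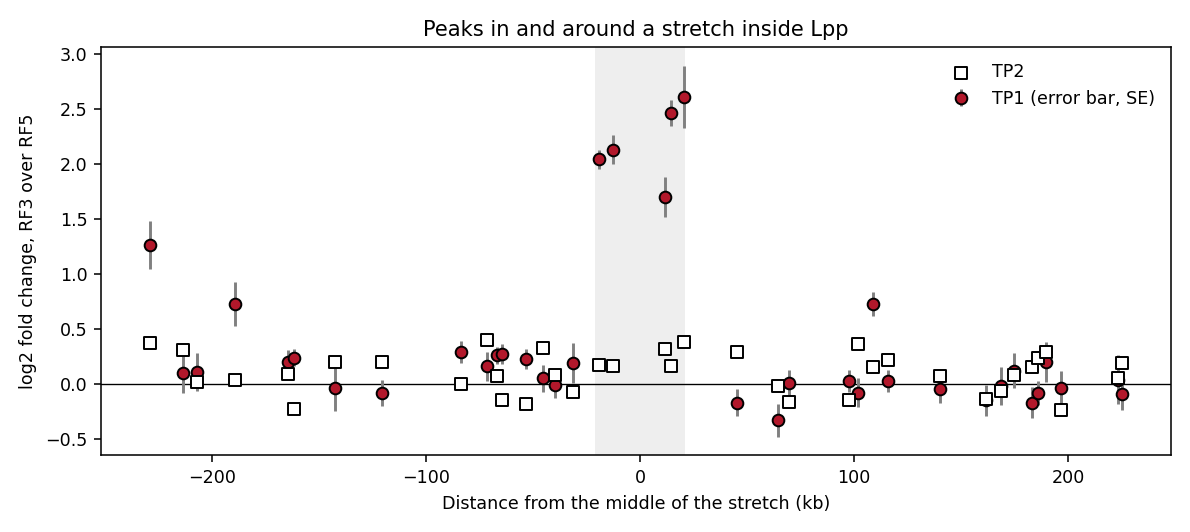
Log2 fold change of RF3 over RF5 with its standard error (y axis) for peaks around the Lpp stretch against the distance from its centre in kb (x axis), at TP1 and TP2. The 5 peaks of the stretch lie at 1.70 to 2.61 at TP1 and at 0.16 to 0.38 at TP2, while the peaks beside them have a median of 0.04 at TP1.

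Outside genes, a peak 10644 bp from Actrt2 (chr4:154654981-154655784) had 4.6, 5.21, 6.41, 4.62 and 5.46 CPM in RF3 and 1.22, 1.54, 1.7, 1.51 and 2.06 CPM in RF5 (log2 1.74 ± 0.13, FDR 2.6e-15). A peak nearest Ankrd66 had 3.27 to 3.72 CPM in RF3 and 0.99 to 1.27 CPM in RF5 (log2 1.59 ± 0.16). Both sets of libraries were well separated. Towards RF5, a peak in Inpp5d (chr1:87680893-87681566), which encodes the lipid phosphatase SHIP1 of blood cells and microglia, had 1.58 to 2.35 CPM in RF3 and 5.03 to 5.44 CPM in RF5 (log2 -1.46 ± 0.13, FDR 5.9e-13). It was called in 0 RF3 libraries and 5 RF5 libraries. Peaks nearest Ppia (131 bp wide, log2 -1.52 ± 0.15) and Tcte2 (log2 -1.42 ± 0.12) were also higher in every RF5 library. The remaining 2 of the 5 lie in repeated DNA. The peak chr9:3035700-3036569, 298662 bp from Alkbh8, its nearest gene, had 0.978 to 1.76 CPM in RF3 and 3.6 to 5.49 CPM in RF5 (log2 -1.67 ± 0.15), and LOC100504180 on chromosome 10 had 2.03 to 3.8 CPM in RF3 and 6.48 to 10 CPM in RF5 (log2 -1.53 ± 0.13). Next to the latter, the promoter peak of Duxf3, a gene of the Dux array of early embryos, had 0.813 to 1.25 CPM in RF3 and 2.72 to 4.75 CPM in RF5 (log2 -1.75 ± 0.16, FDR 5.3e-12). Copies of these sequences are nearly identical, so which copy the reads came from is uncertain.

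The windows of 1 Mb with most DARs in each direction are described here, and they were picked for that number. Towards RF3, the window chr4:154000001-155000000 held 27 DARs towards RF3 and 2 towards RF5 among 103 peaks, 19 of the 27 in Prdm16, which encodes a transcription factor of neural stem cells and brown fat, and 1 at the promoter of Hes5. Over the 34 peaks in Prdm16 the median log2 fold change was 0.64, and 0 were DARs towards RF5. Windows with Tle3, a corepressor of Notch and Wnt targets (16 of 77 peaks), with Msi2, an RNA-binding protein of progenitor cells (14 of 99), with Lfng and Mad1l1 (11 of 118) and with Lpp (10 of 62) followed. They held 0, 1, 2 and 2 DARs towards RF5 in that order. Of the DARs towards RF3 in these windows, 1 lay in or at the promoter of Tle3. For Msi2 the number was 10, for Lfng and Mad1l1 2 each and for Lpp 7. A peak in Tle3 (chr9:61404078-61406263) had 12.3, 11.8, 11.9, 12 and 11.6 CPM in RF3 and 7.23, 6.9, 6.74, 7.02 and 7.03 CPM in RF5. Its libraries differed little within each RF (log2 0.79 ± 0.08, FDR 1.6e-10). By gene, Msi2 held 10 DARs towards RF3 among 46 peaks, Chst11, a sulfotransferase of chondroitin sulfate, 6 among 36, Notch1 4 among 8 and Gli2, an effector of hedgehog signalling, 4 among 17, with 0 towards RF5 in each. Lpp held 7 among 52 peaks, with 2 towards RF5. These genes were picked for their number of DARs, which favours genes with many peaks. Of all gene body peaks 1.33% were DARs towards RF3.

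Towards RF5, the window chr18:24000001-25000000 held 11 DARs among 83 peaks, all 11 in Fhod3, which encodes an actin-nucleating formin. The peak of Fhod3 named by the rule had 1.25, 1.85, 1.36, 1.68 and 1.29 CPM in RF3 and 3.46, 3.03, 3.75, 3.55 and 3.83 CPM in RF5 (log2 -1.23 ± 0.14, FDR 1.1e-09), with no overlap. Over its 29 peaks 1 was a DAR towards RF3. The windows chr6:41000001-42000000 (10 of 35 peaks) and chr9:3000001-4000000 (9 of 21) held no DAR in a protein-coding gene. The window on chromosome 9 includes the peak nearest Alkbh8 given above, in repeated DNA, where the copy that gave the reads is uncertain. A window with Afp, Albfm1 and Rassf6 held 8 of 61, and 1 with Tshz3 held 7 of 42. Each of these 4 genes held only 1 of the DARs of its window. DARs towards RF3 in these 5 windows numbered 0, 1, 0, 0 and 2. By gene, Magi2, a scaffold protein of synapses, held 10 DARs towards RF5 among 142 peaks, Rgs6, a regulator of G protein signalling, 6 among 40, the potassium channel Kcnh1 6 among 53 and Mef2c, an activity-dependent transcription factor of neurons, 4 among 26, with 0 towards RF3 in each. The calcium channel Cacna1e and the cell adhesion gene Clstn2 held 5 each among 87 and 85 peaks. Nrxn3 and Col15a1 also held 5 each, among 141 and 18 peaks, with 1 DAR towards RF3 in each. The genes were again picked for their number of DARs, and 1.55% of all gene body peaks were DARs towards RF5. Sfi1 held 7 among 14 peaks, and part of this gene exists in near-identical copies.

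On the X chromosome, present in 1 copy in males, 100 of 2305 peaks were DARs towards RF3 (4.34%) and 39 towards RF5 (1.69%). The share of all counts on the X chromosome averaged 1.12% in RF3 and 1.11% in RF5 (exact permutation p = 0.167, adjusted p = 0.417). On the autosomes the share of peaks called ran from 3.5% on chromosome 12 to 4.44% on chromosome 1.

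Levels of the other RFs at the DARs were read as a description, since their libraries were part of the fit. They shared in its estimate of spread, replicate block, normalization and filter, while the contrast compared RF3 with RF5. On the log2 scale, against the mean of RF1, RF2 and RF4, the DARs towards RF3 had a median of 0.27 in RF3 and -0.40 in RF5, and RF5 was the lowest of the 5 RFs at 1997 of the 2971 while RF3 was the highest at 1636. The DARs towards RF5 had a median of 0.49 in RF5 and -0.21 in RF3, and RF5 was the highest at 2478 of the 2804 while RF3 was the lowest at 1649. RF5 was thus at the outer end more often than RF3 in both directions. At the 150 DARs of at most 200 bp towards RF5, RF5 was the highest at 145.

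The largest log2 fold change towards RF3 was at a 188 bp peak upstream of the collagen gene Col19a1 (chr1:24612661-24612848), where RF3 had 4.74, 2.73, 2.88, 2.45 and 2.82 CPM and RF5 had 0.445, 0.22, 0.23, 0.112 and 0.333 CPM (11.8-fold, log2 3.56 ± 0.21, FDR 4.6e-18). RF3 was not at the upper end here. The medians were 0.621 CPM in RF1, 5.32 in RF2 and 11.6 in RF4, against 2.82 in RF3 and 0.23 in RF5. In GRCm38 this place holds a nuclear copy of mitochondrial DNA, so which copy its reads came from is uncertain, and mitochondrial reads were not analysed here. The promoter peak of Col19a1 with most counts (chr1:24585808-24587906) differed the other way, at 5.45 to 6.96 CPM in RF3 and 7.42 to 9.13 CPM in RF5 (log2 -0.34 ± 0.09, FDR 0.0056), and was not a DAR.

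At TP2, in littermates killed in the test laboratory, the comparison of RF3 with RF5 shares no library with that at TP1. It gave 380 DARs among 144449 peaks (0.263%), 351 towards RF3 and 29 towards RF5, and 4558 peaks at the FDR alone (3.16%). Depth was lower, at 17761925 to 29361894 counts in RF3 and 30506119 to 36401717 in RF5. DESeq2 called 23 DARs, and it gave no adjusted p for 360 of the 380 because of its filter on mean counts. Leaving out 1 of RF3 replicates 2 and 3 or of RF5 replicates 1 to 4 of TP2 gave 187 to 246 DARs. TP and sequencing batch cannot be told apart, as each TP was sequenced in 1 batch.

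Of the 5775 DARs of TP1, 5773 were tested at TP2, 39 were DARs there (0.675%) and 48 passed the FDR, 8 of these in the direction of TP1, all 8 towards RF3. The sign was the same at 3029 (52.5%), against 49.3% of all peaks. The median log2 fold change went from 0.67 at TP1 to 0.08 at TP2 for the DARs towards RF3 and from -0.70 to 0.06 for those towards RF5. The change of the difference between the TPs, tested as an interaction of RF and TP over both TPs, passed the FDR at 1881 of the 5775 (32.6%), against 7413 of all 144461 peaks (5.13%), and 3101 to 4305 of all peaks passed when the libraries of replicate number 1, 2, 3 or 4 were left out. The interaction holds the TP1 difference that chose these peaks, so its share among them is a description.

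**Figure D5:**
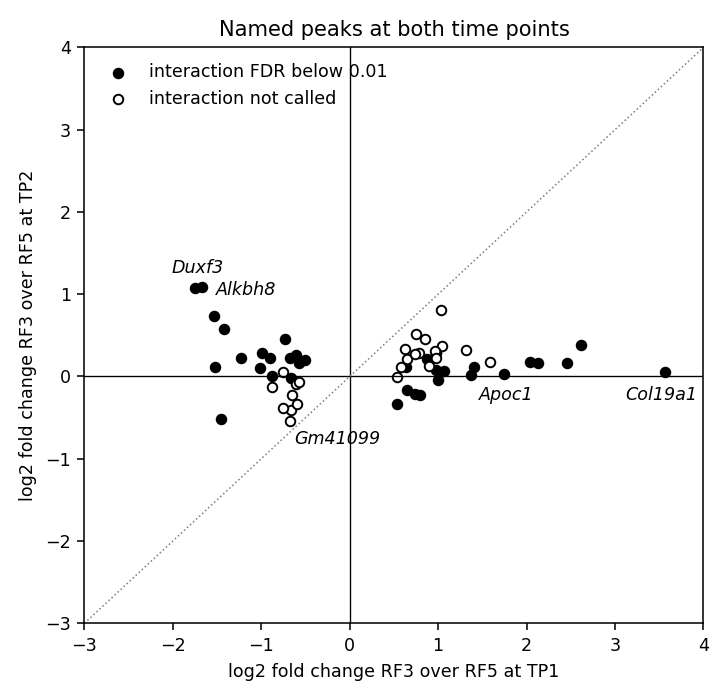
Log2 fold change of RF3 over RF5 at TP2 (y axis) against that at TP1 (x axis) for 60 peaks named by rule, all DARs at TP1, 1 point a peak, filled where the interaction of RF and TP had an FDR below 0.01 (the dotted line marks equal values). The 34 peaks higher in RF3 at TP1 lie between -0.34 and 0.81 at TP2 (median 0.16), and the 26 higher in RF5 lie between -0.54 and 1.09 (median 0.11).

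The named genes differed in how much of the TP1 difference was seen at TP2. A peak in Mad1l1 had a log2 fold change of 1.03 at TP1 and 0.81 at TP2 (interaction FDR 0.68), Gm41099 had -0.67 and -0.54 (interaction FDR 0.74) and Zfp976 had -0.66 and -0.41 (interaction FDR 0.52). Others were near 0 at TP2 or opposite. Apoc1 had medians of 1.25 CPM in RF3 and 1.08 CPM in RF5 at TP2 (log2 0.02, FDR 0.98), and its interaction was 1.35 (FDR 0.00049). Exph5 had medians of 2.82 and 3.23 CPM (log2 0.10, FDR 0.8). The Lpp stretch held 28 to 29.3 CPM in RF3 and 23.2 to 25.6 CPM in RF5 at TP2, so that RF5 lay above its own TP1 level of 4.06 to 6.33 CPM. The log2 fold changes of its 5 peaks were 0.16 to 0.38, with 0 DARs. At the peak near Alkbh8 the direction was opposite at TP2, with medians of 1.75 CPM in RF3 and 0.86 CPM in RF5 (log2 1.09, FDR 0.0047), and at 4931408C20Rik it was opposite as well (log2 0.46, FDR 0.0039).

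Among the astrocyte promoters, the log2 fold changes at TP2 were 0.37 for Aldh1l1 (FDR 0.47), 0.29 for Gfap (FDR 0.45) and 0.52 for Acsbg1 (FDR 0.3), none of which passed. The median over the 20 promoters was 0.06 at TP2, where the median over all promoters was -0.19, against 0.33 and -0.01 at TP1. Other lists had TP2 medians above that of all promoters too, among them microglia at 0.06, oligodendrocytes at -0.00, endothelial and mural cells at -0.01 and pyramidal neurons at -0.05. The sums were 174 to 182 CPM in RF3 and 166 to 176 CPM in RF5 at TP2. These overlapped, which the sums at TP1 did not. The interaction passed the FDR for none of Aldh1l1 (0.67, FDR 0.096), Gfap (0.71, FDR 0.016) and Acsbg1 (0.24, FDR 0.67), so a change of these 3 differences between the TPs was not shown. For Hes5 it passed (0.87, FDR 2.3e-05), with a value of -0.34 at TP2 (FDR 0.087), and for Notch1 it did not (0.56, FDR 0.017).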

How the data were processed

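The authors sorted NeuN-positive nuclei for each library and made ATAC-seq libraries from them. Sorting took 5 batches per TP with 1 sample of each RF in each, and amplification and sequencing took 1 batch per TP. The authors aligned the reads with Bowtie2 to GRCm38, marked duplicates with Picard 1.140 and called broad peaks in each library with MACS2 2.1.4. Peaks present in 3 or more of a group's 5 libraries were merged by the authors over the 10 groups, and reads were counted with featureCounts. All tests here start from the deposited raw counts, which carry no normalization. A deposited table of normalized values has values identical to the raw ones and was not used. In the deposited merged peaks a score from 1 to 10 gives the number of groups in the merge. From the authors' peak lists of the 10 libraries, the positions and the -log10 q-values that MACS2 gave were used. The authors tested the counts with DESeq2.

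Counts were tested by robust quasi-likelihood F-tests in edgeR 4.0.16 (R 4.3.3), with TMM factors and a filter on low counts by filterByExpr, over all 25 libraries of TP1 with RF and replicate number as terms and the contrast RF3 minus RF5. The sorting batches are not labelled, and the replicate number stood for them. P-values were adjusted by Benjamini-Hochberg over all peaks tested. CPM are scaled to all counts in peaks of a library, and the other RFs were compared on log2(CPM + 0.1). A ± value is the standard error of a log2 fold change. Library measures were compared by exact permutation tests, two-sided. The precision of a value is set by its counts, and no count of 0 is read as absence. On 20000 simulated peaks with 100 changed per fold, the RF3 and RF5 test at TP1 called 87 of those changed by 0.7 on the log2 scale. It called 99 of those changed by 1, and 0 of 19800 unchanged peaks. The simulated libraries were independent and had the same dispersion at every peak. Close libraries and a replicate that stands apart were not simulated, so these counts do not measure the error in the real libraries. The alternatives tried were DESeq2 1.42.0, other normalizations, no filter on low counts, no replicate block, close libraries summed, only the 10 libraries, and leaving out each library. The table handling used Python 3.11.15, numpy 2.4.6, pandas 2.3.3 and matplotlib 3.10.9.

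Libraries of a group were called close where their difference over 23293 peaks with 500 to 5000 counts lay within 1.02 times the sampling variance, set at 2 times the binomial variance since a read pair can give 2 counts. Genes are from RefSeq GRCm38.p6, with a promoter window of 2 kb on each side of the start. For 3077 genes with no promoter entry, the start was placed at whichever gene end held more counts, a rule that was right for 9716 of 11743 genes that could be checked (82.7%). Where a gene had several promoter peaks, the one with most counts over TP1 gave its value unless another peak is named, and a count of genes with a promoter DAR took any of them. Genes were named by rule: the 12 promoters with the largest log2 fold change in each direction among protein-coding genes with at least 100 counts per library and no overlap of the libraries, the 5 largest away from promoters, up to 3 per gene list, the genes of the 5 windows of 1 Mb with most DARs in each direction, and 3 peaks described elsewhere in the series (upstream of Col19a1, Duxf3 and Apoc1). Other genes are named from the lists, after their values were seen. The comparison and its 35 gene lists were chosen with earlier results of these data known.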

Additional observations from a re-analysis of the deposited data

Results flagged for a closer look

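Of 132 groups of 5 libraries checked, 9 held a library far from the other 4 by Dixon's criterion, which chance gives in about 1 group in 20. RF3 replicate 5 was the highest RF3 library at the promoters of Apoc1 (6.3 CPM) and Acsbg1 (3.59 CPM). RF3 replicate 4 was the highest at Madcam1 (2.8 CPM) and the lowest at 4931408C20Rik (3.88 CPM). RF3 replicate 1 was the highest at Sbspon (4.31 CPM) and at the peak upstream of Col19a1 (4.74 CPM), and had the lowest share of counts in glial marker promoters among the RF3 libraries (0.0374%). RF3 replicate 3 was the highest at Ccdc190 (4.56 CPM), and RF5 replicate 5 was the highest RF5 library at the named peak in Mad1l1 (1.33 CPM). All of these peaks were DARs without overlap of the RFs.

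For 24 of 36 named entries, the difference between RF3 and RF5 was not the same at TP1 and TP2 by the interaction of RF and TP (edgeR, FDR below 0.01). On the log2 scale, the TP1 difference minus the TP2 difference was 1.35 at Apoc1, 1.00 at Tcf7l2, 1.05 at the peak of Cmtm5 and Il25, 0.91 at Ccdc190, 0.68 at Epas1 and 0.66 at Pdk4 among promoters higher in RF3. Among promoters higher in RF5 it was -1.11 at Exph5, -1.27 at Klhl30, -0.88 at S100a11, -1.19 at 4931408C20Rik, -0.89 at Akr1c18, -0.86 at Sbspon and -2.81 at Duxf3. Away from promoters it was 2.3, 1.98 and 1.88 at the 3 named Lpp peaks, 1.71 near Actrt2 and 3.50 upstream of Col19a1. Towards RF5 it was -2.74 near Alkbh8, -2.25 at LOC100504180, -1.64 near Ppia, -0.93 in Inpp5d and -2.0 near Tcte2. These peaks were named for their TP1 difference, which is part of the interaction. At TP2 the test laboratory, age and sequencing batch differ from TP1 together and cannot be told apart.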

How the results depend on the processing

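The number of DARs at TP1 stayed within 1.5 times the main count of 5775 under every alternative tried but 2, at 3704 (1716 of them higher in RF5) with close libraries summed and no replicate block, and at 13727 with the FDR alone. Leaving out single libraries gave 4972 to 5412. Of the 5775 DARs, 4762 (82.5%) were also DARs with the counts of each 1 Mb region as an offset, and 3575 (61.9%) with close libraries summed. The share of DARs higher in RF3 was 51.4% and ran from 45.3% (1 Mb region offset) to 54.4% (without RF5 replicate 2). The same 6 astrocyte genes had a promoter DAR towards RF3 under every alternative that kept the fold threshold. Without the replicate block there were 5496 DARs at TP1, 384 at TP2 and 5918 peaks with an interaction, against 5775, 380 and 7413 with it. The replicate numbers did not pair the libraries by their counts, since the deviations from the RF means correlated over 0.1 for 1 of 5 numbers (0.364 for replicate 1, 0.0044 to 0.0414 for the others). At TP2, DESeq2 gave 23 DARs against 380 in edgeR, and leaving out single libraries gave 187 to 309. The interaction gave 3101 to 6905 peaks without 1 replicate number. The difference in the share of counts in glial marker promoters was 0.00382 to 0.00426 percentage points without 1 replicate number, with adjusted p-values of 0.0714 to 0.143, as 4 against 4 libraries allow less, and 0.00398 with an adjusted p of 0.143 with close libraries averaged, an alternative chosen after seeing the data. Of 61 named peaks, 52 kept their call under every setting and no direction was reversed. The exceptions were 4931408C20Rik, Zfp976, Adcyap1, Notch1, Hes5 and Tshz3 (1 Mb region offset), Hes5 also with a loess offset and without RF3 replicate 4, Wnt2 and Nts without single libraries, and Zg16 with close libraries summed and without RF5 replicate 5. The cause was not tested, other than the smaller number of samples in the fits named so. Peaks with few counts limit the smallest difference that can be called, with 98 counts per library at the median DAR, and p-values measure the spread between libraries that may in part be technical.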

Other observations

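Among the lists not described above, interferon and innate immune genes had 0 promoter DARs in edgeR and DESeq2 among 25 genes with a promoter peak. Of these promoters 15 had an unadjusted p under 0.05, and Ifi27 was the 1 promoter past the FDR (log2 0.36, FDR 0.00083). Over all genes, 1.06% had a promoter DAR towards RF3 and 0.62% towards RF5, and 26.3% of promoters had an unadjusted p under 0.05. Heat shock and temperature response genes held 2 genes with a promoter DAR among 22, both higher in RF3. Hspb8, a small heat shock protein, had 3.7 to 4.7 CPM in RF3 and 2.26 to 3.06 CPM in RF5 (log2 0.64), and Serpinh1, a chaperone of collagen, had 2.37 to 3.56 CPM in RF3 and 1.7 to 2.13 CPM in RF5 (log2 0.64). These values, and those of Timp3, Vegfa and Akt2 below, come from a second promoter peak with fewer counts than the gene's main one. Timp3, an inhibitor of matrix proteases, had 4.41 to 5.1 CPM in RF3 and 2.79 to 3.84 CPM in RF5 (log2 0.56). Vegfa, the growth factor of blood vessels, was the 1 DAR among 25 genes of neurotrophins and growth factors, at 1.87 to 2.85 CPM in RF3 and 1.08 to 1.95 CPM in RF5 (log2 0.70), where the libraries overlapped. Akt2, a kinase of insulin signalling, had 4.03 to 5.32 CPM in RF3 and 2.72 to 3.26 CPM in RF5 (log2 0.71). The ErbB and EGF pathway had 0 DARs among 17 genes in edgeR and DESeq2, with 2 at an unadjusted p under 0.05, and the lists of insulin and AMPK genes and of TGF-beta and BMP genes had medians of 0.02 and 0.05.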
